A study of Rattus norvegicus with 16 samples.

Results

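The frontal cortex of chow-fed rats was described alone, as the transcriptome of 4 libraries labelled chow 1 to chow 4 out of the 16 samples of the series. The animals were male Sprague-Dawley rats, an outbred stock, that were 11 weeks old when assigned to a diet and then ate chow for 7 weeks without any injection. The other 12 samples, from rats on a high fat diet with or without injections, were not used here. Every locus with a gene symbol and the status OK in all 4 chow columns was a member, which gave 17930 of 28168 loci. A further 75 loci with a symbol had another status in at least 1 chow column. Values are FPKM, in which fragment numbers are divided by transcript length and by library size, so levels can be set beside each other between genes of different length. No contrast between groups was made, and each statement on libraries compares single chow libraries with each other.

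The frontal cortex is a layered sheet in which glutamatergic projection neurons outnumber the GABAergic interneurons that inhibit them. Astrocytes supply the neurons with metabolites and clear transmitter, oligodendrocytes wrap axons in myelin, microglia are the resident immune cells, and blood vessels and the leptomeninges carry endothelial, mural and fibroblast-like cells. A poly-A library from dissected tissue pools the mRNA of all of these. Fewer cells of a type and less RNA per cell cannot be told apart in such data.

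The summed FPKM of the members was 368481 to 383990 per library. Read totals are not given, but in the lowest values, which move in steps of single fragments, chow 3 and chow 4 lay at 38.7% and 54.6% of the depth of chow 2. Chow 1 showed no clear step against chow 2. Between libraries, the Pearson correlation of log2(FPKM + 0.5) across 10837 loci ranged from 0.969 for chow 1 with chow 4 to 0.990 for chow 2 with chow 3. Genes are not independent replicates, so these describe the libraries only. The labels do not state that the samples of the group are separate animals, so the spread reported below may in part be technical.

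Of the members, 10837 (60.4%) had a mean of at least 1 FPKM, and 10441 reached 1 FPKM in every library. The median member stood at 3.33 FPKM, the 90th percentile at 44.2 and the 99th at 272. A mean of 10 FPKM was reached by 5996 loci, 100 FPKM by 709 and 1000 FPKM by 22. At the other end, 3233 loci were listed at 0 in all 4 libraries. The 10 highest loci held 5.02% to 6.17% of the summed FPKM of a library, and the 100 highest held 22.7% to 22.9%. Of the 100 highest loci of each library, 92 were shared by all 4.

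**Figure D1:**
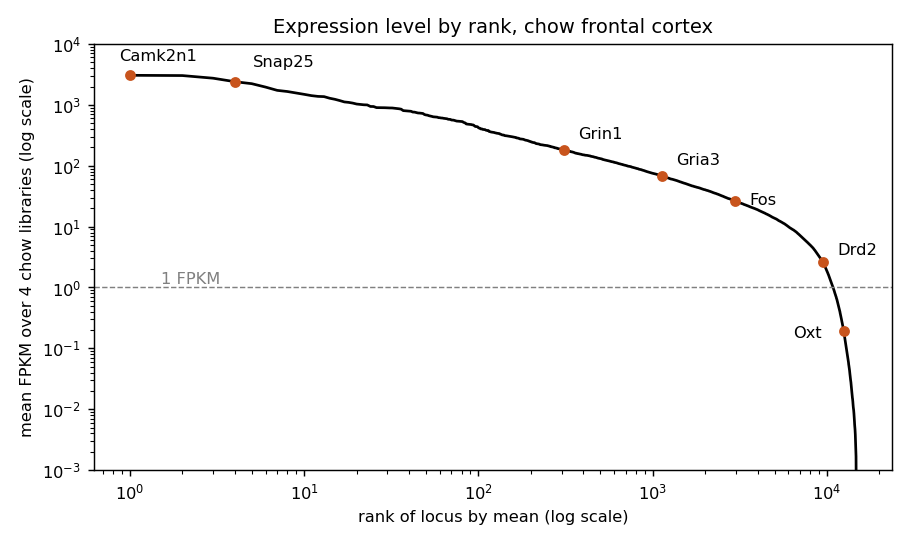
Mean FPKM over the 4 chow libraries (vertical, log scale) against the rank of the locus (horizontal, log scale), with 7 genes marked. The curve falls from Camk2n1 at 3058 FPKM through Grin1 at 185 and Drd2 at 2.60 to Oxt at 0.195, below the dashed line at 1 FPKM.

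The 100 loci of highest mean, out of 17930 members, held 4 of 14 general neuronal, 3 of 8 excitatory, 5 of 14 astrocyte and 2 of 17 myelin markers. They also held 6 of 21 genes of synaptic vesicle release and 5 of 15 of the tubulin, actin and cytoskeleton list. Complex IV had 3 of 12 there and the neuropeptide and granin list 3 of 22. A gene can be in several lists. The highest mean belonged to Camk2n1, which encodes an inhibitor of the synaptic kinase CaMKII, at 3026, 3312, 3562 and 2334 FPKM in chow 1 to chow 4. The polyubiquitin gene Ubb followed at 3005, 3481, 3016 and 2613 FPKM. Their ranges overlapped, so the order of Camk2n1 and Ubb is not set beyond the spread. Mbp, which encodes myelin basic protein, came next at 2396, 3014, 3514 and 2039 FPKM. Snap25, the synaptic membrane SNARE protein, followed at 2755, 2375, 2595 and 1880 FPKM. Chow 4 had the lowest value in each of these 4 genes, as it had in 38.1% of all loci at 1 FPKM or more. This library pattern recurs below.

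Among the rest of the 20 highest loci, neurogranin (Nrgn), a calmodulin-binding protein of dendritic spines, averaged 2228 ± 286 FPKM (SD, n = 4), and Calm3, which encodes its partner calmodulin, averaged 1284 ± 52.7. Camk2a, the alpha subunit of CaMKII, stood at 1568 ± 94.6 FPKM. Apoe, the lipid carrier that astrocytes secrete, averaged 1959 ± 144, the cysteine protease inhibitor Cst3 1418 ± 184, and the metal-binding Mt3 1377 ± 148. Syp, the synaptic vesicle protein synaptophysin, had the smallest relative spread among the 20, with 1156, 1087, 1135 and 1090 FPKM. Its 4 values lay within a fold of 1.06. Zwint, Olfm1, Ckb, Ywhah, Atp1b1, Cpe and LOC685322 were also in the group, between 1031 and 1730 FPKM, apart from a microRNA locus described below that was high in a single library.

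Markers of the labelled tissue were present at high levels. Slc17a7, the vesicular glutamate transporter of cortical projection neurons, was at 604, 647, 615 and 719 FPKM, with chow 4 highest and chow 1 lowest. All 8 measured markers of excitatory neurons had at least 1 FPKM, against 60.4% of all members, and Neurod2, a factor of projection neurons, averaged 27.9 ± 2.32. Of 16 interneuron markers, 15 reached 1 FPKM. The peptide gene Sst averaged 281 FPKM and Pvalb, the calcium buffer of fast-spiking cells, 263. Vip, the peptide of another interneuron class, was at 39.0, 29.2, 30.5 and 26.9 FPKM, with chow 1 highest.

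Glial and vascular markers covered a wide range of levels. All 14 astrocyte markers were above 1 FPKM, against 60.4% of all members. They ranged from S100b at 1002 ± 150 and Aldoc at 892 ± 105 down to Aldh1l1 at 9.02 ± 0.389. The 17 loci of the myelin list had a median of 54.8 FPKM, and the oligodendrocyte precursor markers stood lower, with Gpr17 at 11.8 and Vcan at 3.50 FPKM. Microglial markers had a median of 13.5 FPKM, and C1qa, a subunit of the first complement component, averaged 39.4. Of the endothelial markers, the tight junction gene Cldn5 averaged 98.0 and Kdr, a VEGF receptor, 2.24 FPKM. The pericyte marker Rgs5 averaged 68.5 FPKM.

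Layer markers were found for both upper and deep cortical layers. Lamp5 was the highest of 8 upper-layer markers at 187 ± 23.6 FPKM and Mdga1 the lowest at 4.73. Pcp4, a calmodulin regulator of deep layers, averaged 479 ± 101 FPKM, and 11 of 12 deep-layer markers reached 1 FPKM, against 60.4% of all members. Ntsr1, a layer 6 marker, did not, at 0.115 to 0.235 FPKM.

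Markers of the hypothalamus, pituitary and dentate gyrus were low. Those of the thalamus were not: 7 of 8 reached 1 FPKM, against 60.4% of all members, with a median of 4.90 FPKM. Striatal markers are given below. Of 11 hypothalamic markers only Pomc had a mean of 1 FPKM or more, at 1.204 to 1.61, and Oxt, which encodes oxytocin, stood at 0.286, 0.179, 0.232 and 0.0819 FPKM. All 6 pituitary markers had means below 1 FPKM, with Prl, Gh1, Cga and Fshb listed at 0 in all 4 libraries. The dentate gyrus marker Prox1 was at 1.21 to 1.57 FPKM, and the other 3 measured for that region were below 1. The forebrain patterning factor Lhx2 was at 26.6 to 29.0 FPKM. By contrast Pax2, Pax3, Gbx2 and Otx2, factors of midbrain, hindbrain or thalamic patterning, were listed at 0 in every library. These regional factors were picked after their values were seen. Haemoglobin transcripts were present: the merged locus Hba1,Hba2 stood at 184, 197, 208 and 101 FPKM, lowest in chow 4.

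Gene families differed in how many members were expressed. Of 1307 olfactory receptor loci, 1229 were listed at 0 in all 4 libraries and 2 reached 1 FPKM, the highest being Olr59 at 7.32 FPKM. None of 34 Hox loci and none of 38 beta-defensin loci reached 1 FPKM. Of the 66 Rab loci, which encode small GTPases of vesicle traffic, 57 did (86.4%), led by Rab3a at 576 FPKM. The share was 74.1% of 108 potassium channel loci, 63.1% of 352 solute carrier loci and 83.0% of 200 zinc finger loci named Zfp. All 19 semaphorin loci, which encode axon guidance ligands, passed 1 FPKM, led by Sema7a at 174. Against the 60.4% of all members, the sensory receptor and body-axis families lay far below and the vesicle, channel and guidance families above. The families were likewise chosen with the table in view.

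Fast excitatory transmission runs through AMPA, NMDA and kainate receptors, which are tetramers of subunits from separate genes. Among NMDA receptor genes Grin1, the obligatory subunit, was at 184, 182, 189 and 183 FPKM, the steadiest of the 7. Grin2a followed at 33.9 ± 2.00, Grin2b at 23.7 ± 2.92 and Grin2c at 14.1 ± 1.91 FPKM, and this order held in all 4 libraries. Grin3a at 2.72 to 5.52 and Grin2d at 2.71 to 3.27 FPKM could not be ordered, since each was above the other in 2 libraries. All 7 NMDA receptor genes were above 1 FPKM, against 60.4% of all members.

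The AMPA receptor gene with the highest level was Gria2, whose product limits calcium entry, read at a merged locus Gria2,Mir2985 with 94.2, 112, 83.6 and 133 FPKM. Gria3 averaged 67.6 ± 5.52, and the kainate receptor gene Grik5 61.5 ± 3.44. Gria1 averaged 49.4 ± 9.85 and Gria4 41.8 ± 7.22, and their order changed between libraries, with Gria1 above Gria4 in 2 of 4. Chow 4 was highest in 9 of the 11 AMPA, kainate and delta receptor genes, against 29.3% of all loci at 1 FPKM or more, and Gria4 was lowest there. Of the metabotropic receptor genes, Grm7 at 23.9 ± 3.20 and Grm3 at 23.6 ± 2.65 FPKM were the highest of 7 measured and overlapped in range, and Grm6 stayed below 1 FPKM. The AMPA, kainate and delta list, the NMDA list and the metabotropic list had medians of 14.4, 14.1 and 14.5 FPKM.

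Inhibition by GABA uses chloride channels of 5 subunits and the metabotropic GABA-B receptor. Gabbr1, a GABA-B subunit, led its family at 251, 219, 215 and 239 FPKM. Gabrb2, a beta subunit of GABA-A receptors, averaged 49.4 ± 4.57 FPKM. Gabra6, a subunit known from cerebellar granule cells, stood at 0.223 to 0.309 FPKM. The widest spread in the family was that of Gabra5, at 13.2, 20.4, 15.7 and 28.3 FPKM, where chow 4 was 2.09-fold chow 1 on the FPKM + 0.5 scale.

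**Figure D2:**
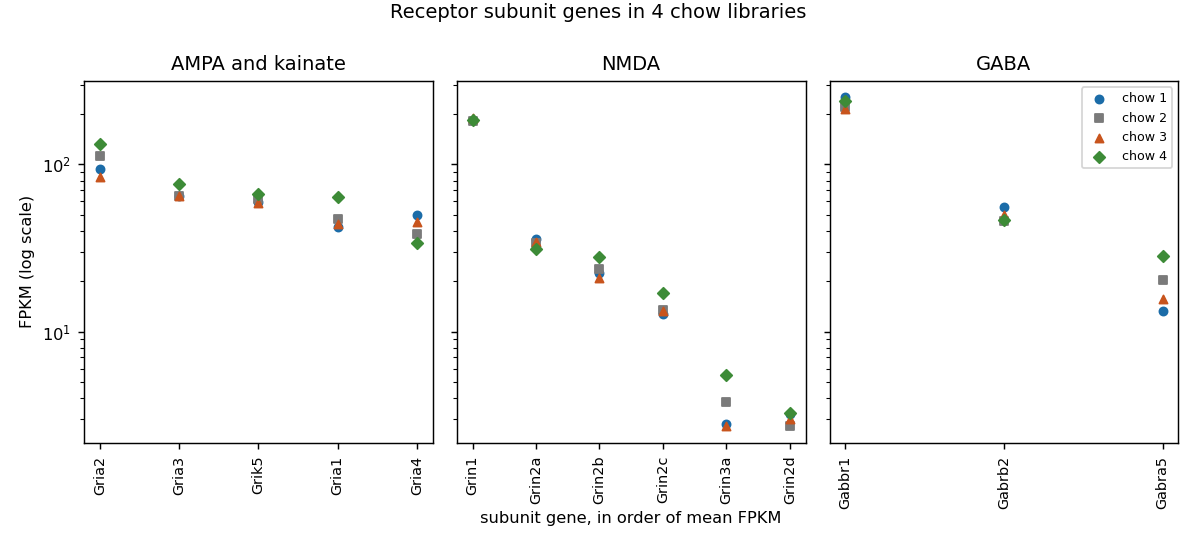
FPKM (log scale) of the AMPA and kainate, NMDA, and GABA receptor genes named in the text with a mean of at least 1 FPKM, in order of their mean, with 1 point per chow library. The points of Grin1 overlap between 182 and 189 FPKM, whereas those of Gabra5 spread from 13.2 to 28.3.

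Among receptors for modulators, Chrm1, the M1 muscarinic receptor, had the highest level at 52.7, 58.6, 58.7 and 64.6 FPKM. The cannabinoid receptor gene Cnr1 averaged 29.7 ± 6.62 and the alpha-1D adrenergic receptor gene Adra1d 27.0 ± 2.02 FPKM. Of the serotonin receptors, Htr2a was highest at 13.2 ± 1.32 FPKM and Htr1a stood at 4.45 ± 0.602. The opioid receptors ranked Oprl1 at 9.40, Oprd1 at 4.47, Oprk1 at 0.385 and Oprm1 at 0.380 FPKM, the last 2 with overlapping ranges. Of the 35 receptor genes in the list, 24 had at least 1 FPKM, against 60.4% of all members, and Chrm2, the M2 muscarinic receptor, was listed at 0 in all 4 libraries. The dopamine transporter gene Slc6a3 was low, at 0 to 0.0178 FPKM, as was the serotonin transporter gene Slc6a4, at 0.0337 to 0.0951. Chat, which makes acetylcholine, averaged 9.40 ± 0.941 FPKM.

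Peptide precursors and the machinery of dense-core vesicles were abundant. Cpe, a carboxypeptidase that trims peptide precursors, averaged 1031 ± 98.9 FPKM, the cholecystokinin gene Cck 538 ± 64.8 and the granin Chgb 313 ± 29.3. Penk, the enkephalin precursor, was at 63.0, 67.7, 106 and 62.9 FPKM, highest in chow 3. Crh, the corticotropin-releasing hormone gene, was at 7.33, 4.80, 5.77 and 4.23. Npy was listed at 0, 0, 0 and 1.35 FPKM. Among the trophic factors, Bdnf averaged 5.59 ± 1.10 FPKM and its receptor gene Ntrk2 94.9 ± 9.94.

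Voltage-gated channels set the shape of action potentials. The pore-forming sodium channel gene Scn8a averaged 62.2 ± 3.58 FPKM and Scn2a1 43.0 ± 6.78. Of the calcium channels, Cacna1a, the P/Q-type pore, averaged 39.5 ± 1.59 and Cacna1i 34.1 ± 0.991. The values of Cacna1i lay within 33.2 to 35.2 FPKM in all 4 libraries.

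Glycolysis, which splits glucose to pyruvate, was the list with the smallest spread. Its 14 members at 1 FPKM or more had a median SD of log2(FPKM + 0.5) of 0.06 against 0.12 over all 10837 loci. Their median level was 152 FPKM, and loci at 100 to 500 FPKM had a median SD of 0.10. Of the 14, 0 varied 2-fold, against 3.51% of all loci and 0.96% of those at 100 to 500 FPKM. At such shares few or none of 14 would vary. Aldoa stood at 622, 588, 582 and 602 FPKM, Pgam1 at 362, 359, 362 and 378, and Pfkm, the muscle-type phosphofructokinase, at 224, 217, 216 and 218. Ldhb, which encodes the heart-type lactate dehydrogenase subunit, was the highest at 616 ± 61.2 FPKM and was lowest in chow 4. Hk2 averaged 1.49 FPKM, against 147 for the brain hexokinase Hk1.

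Nuclear genes of the respiratory chain had high medians and a wide range. The 33 complex I genes had a median of 102 FPKM, from Ndufv3 at 18.4 ± 3.49 to Ndufb9 at 310 ± 36.3. The 12 complex IV genes had a median of 232, from Cox4i2 at 4.09 to Cox4i1 at 889 ± 51.5. The 16 ATP synthase genes had a median of 283 FPKM, from Atp5f1 at 1.32 (5.14 in chow 2 and at most 0.114 in the others) to Atp5b at 790 ± 91.1. Proteasome genes had a median of 57.6 FPKM. Of 82 cytosolic ribosomal protein loci, 62 reached 1 FPKM, against 60.4% of all members, led by Rpl41 at 441 ± 35.5, and the median of all 82 was 12.2 FPKM.

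The insulin and energy sensing list and the DNA methylation list had medians of 7.79 and 11.8 FPKM, against 3.33 for all members. The kinase genes Akt1 and Akt2 averaged 78.2 ± 2.55 and 34.1 ± 3.44 FPKM, and the insulin receptor gene Insr 6.71. The maintenance DNA methyltransferase Dnmt1 stood at 6.94, 7.09, 7.23 and 7.71 FPKM and the de novo enzyme Dnmt3a at 6.49, 6.71, 7.39 and 7.79. Dnmt3b was between 0.0792 and 0.195 FPKM. The methyl-CpG binding domain gene Mbd3 averaged 61.0 ± 1.496. None of the 8 DNA methylation genes at 1 FPKM or more varied 2-fold, against 3.51% of all loci. Of the cholesterol synthesis genes, which supply myelin, Hmgcs1 was highest at 98.5 ± 3.82 FPKM.

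Some genes known as abundant in brain were low at the locus that carries their symbol. The neuronal enolase Eno2 was at 1.21, 1.33, 1.14 and 1.60 FPKM, the chaperone Hspa8 at 3.21 to 3.66 and the glycolytic enzyme Tpi1 at 0.0979 to 0.273. The reference gene Hprt1 was listed at 0 in chow 1 and chow 4 and stood at 0.0456 and 0.0393 in the others. The glucose transporter Slc2a3 was at 0 to 0.0225 FPKM and the collagen gene Col1a2 was listed at 0 in all 4. These values belong to the deposited loci, and where else the reads of these genes were counted was not tested.

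Between libraries the spread was small for most loci. The median SD of log2(FPKM + 0.5) over the 10837 loci at 1 FPKM or more was 0.12, which corresponds to 8.52% of the level. The highest library was at least 2-fold the lowest, on the FPKM + 0.5 scale, in 380 loci (3.51%). The spread was smaller at higher levels, with a median SD of 0.18 and 10.2% of loci varying 2-fold at 1 to 2 FPKM and 0.10 and 0.929% at 50 to 100 FPKM. Above 500 FPKM, 4 of 84 loci (4.76%) varied 2-fold.

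The steadiest gene with a mean of at least 5 FPKM was Arl6ip1, which encodes a membrane-shaping protein of the endoplasmic reticulum, at 101.0, 100.4, 100.9 and 100.1 FPKM. Tfip11, a splicing factor, stood at 12.11, 12.04, 11.98 and 12.13, and Btbd10 at 30.2, 30.1, 30.4 and 30.4 FPKM. The phosphatase genes Ppm1g and Ppm1a averaged 31.0 ± 0.204 and 53.3 ± 0.387 FPKM. Rabgef1, Sart1, Aqr and Spag5 were also among the 10 steadiest, each with the highest library within a fold of 1.02 of the lowest. Among the reference genes often used for normalization, Tfrc averaged 23.5 ± 0.606 and Actb 735 ± 31.7 FPKM, whereas B2m ranged from 107 to 166.

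**Figure D3:**
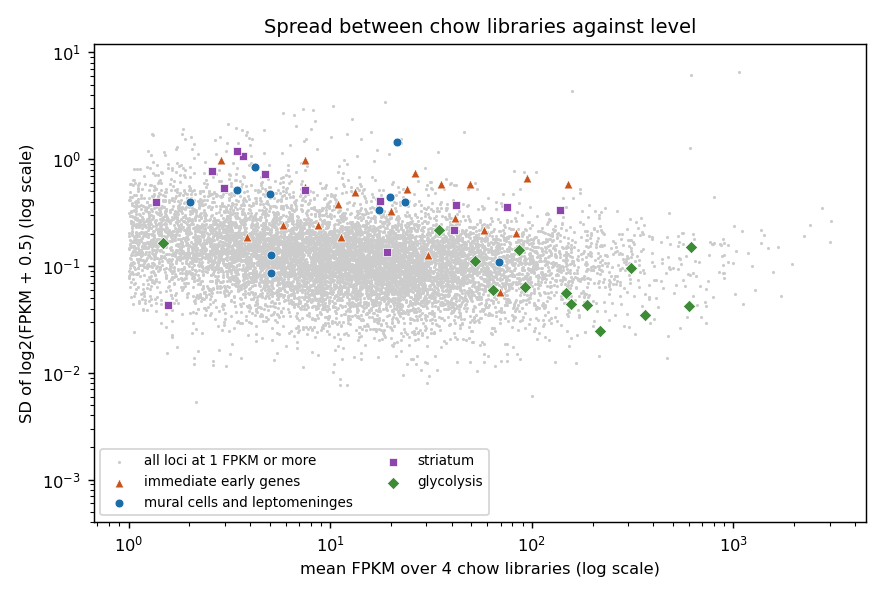
SD of log2(FPKM + 0.5) over the 4 chow libraries (vertical, log scale) against mean FPKM (horizontal, log scale) for the 10837 loci at 1 FPKM or more, with 4 gene lists coloured. Many glycolysis genes lie in the lower part of the cloud and many immediate early, mural and striatal genes near its top, up to Igf2 at an SD of 1.45.

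The largest spread with a mean of at least 5 FPKM came from loci named for microRNAs. Mir485 was listed at 0 in chow 1, chow 2 and chow 3 and stood at 4275 FPKM in chow 4, and Mir128-1 at 0, 0, 0 and 2460. Mir1249 was listed at 0 in chow 1 and chow 3 and stood at 21.9 and 19.5 FPKM in chow 2 and chow 4. Mir214 was above 0 only in chow 2, at 29.2 FPKM. Of 348 loci named for a single microRNA, 299 were listed at 0 in all 4 libraries and 27 had a mean of at least 1 FPKM. The hairpins in the RefSeq table (build GRCr8) have a median length of 88 bases and reach 141, whereas the sequenced fragments were 200 to 400 bp per the labels, and poly-A libraries do not capture mature microRNAs. The values are therefore those of the loci, not of the mature microRNAs below, which are shown to identify the 2 loci. They are given 5′ to 3′ with the seed, bases 2 to 8, in capitals, on build GRCr8.
rno-miR-485-5p (chr6:134571076-134571097, plus strand): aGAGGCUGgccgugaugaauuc
rno-miR-485-3p (chr6:134571115-134571136, plus strand): cAUACACGgcucuccucucuuc
rno-miR-128-1-5p (chr13:42251898-42251918, plus strand): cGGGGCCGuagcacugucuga
rno-miR-128-3p (chr13:42251933-42251953, plus strand): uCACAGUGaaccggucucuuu
The 4 seeds differ from each other. Both loci were at 0 in 3 of 4 libraries, so no fold is given.

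Major histocompatibility genes also varied widely. RT1-CE16, a class I gene, was listed at 0 in chow 1 and stood at 259, 193 and 181 FPKM in the others. RT1-A1 was at 5.10, 120, 28.8 and 29.6 FPKM and RT1-A2 at 18.4, 9.04, 15.9 and 3.69, so that chow 1 was the lowest for the first and the highest for the second. These genes belong to a family of near-identical copies, and whether the counting split their reads was not tested. Of the 14 interferon and MHC genes at 1 FPKM or more, 8 varied 2-fold, against 3.51% of all loci, and 11 were lowest in chow 4, against 38.1%. Ifi27 was at 104, 156, 58.8 and 49.0 FPKM and the class II chain gene Cd74 at 8.85, 7.51, 5.21 and 2.56.

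Other genes of wide spread were low in a single library or high in a single library. Cartpt, a neuropeptide gene, was at 14.8, 11.9 and 12.6 FPKM in chow 1 to chow 3 and at 0.921 in chow 4. Sepw1, a selenoprotein gene, was likewise low in chow 4, at 0.168 against 16.8 to 17.4 FPKM. Ttr, the thyroxine carrier of the choroid plexus, stood at 4.33, 35.5, 1.66 and 6.88 FPKM, highest in chow 2. Of the other 7 choroid plexus markers, Kcnj13 was at 16.1 to 17.7 FPKM in every library and 6 had means below 1. Car3 was low in chow 2, at 0.802 against 8.52 to 10.4 FPKM. Rpl30 was at 0.721 FPKM in chow 1 and 9.53 to 10.4 in the others. Plac9 was at 42.2 FPKM in chow 4 and at most 5.67 elsewhere. Fam111a was at 18.1 and 8.24 FPKM in chow 2 and chow 4 and at 0.131 and 0.0690 in chow 1 and chow 3. Rpl17, a ribosomal protein gene, was at 20.1, 26.5, 3.64 and 17.9 FPKM, lowest in chow 3.

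Of the 9615 loci at 1 FPKM or more that carry a symbol alone, 2.76% varied 2-fold. Where a symbol had several loci, 4.31% of the 788 with the highest mean varied 2-fold, as did 18.7% of the 434 others. These shares were not matched for level. The 434 are the lower loci of their symbols, and at 1 to 2 FPKM 10.2% of all loci varied 2-fold. Ywhag, a 14-3-3 protein gene, had a main locus at 372, 453, 442 and 490 FPKM and another at 74.2, 0.826, 0 and 0. Their sums were 446, 454, 442 and 490 FPKM. The 2 loci of Sgpp2, a sphingosine phosphate phosphatase gene, summed to 19.9, 17.0, 17.4 and 18.7 FPKM although the second was at 0.0399 in chow 1 and 8.62 to 9.35 in the others. Summed over the loci of each symbol, 3.21% of 810 such genes varied 2-fold. Ywhag and Sgpp2 were picked with their values in view.

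The libraries were not equally often extreme. Chow 1 was highest in 32.3%, chow 2 in 17.2%, chow 3 in 21.3% and chow 4 in 29.3% of the 10837 loci. The lowest value fell to chow 1 in 28.2%, chow 2 in 14.2%, chow 3 in 19.5% and chow 4 in 38.1%. Where each library was scaled to the same summed FPKM, chow 4 was highest in 37.8% and chow 1 in 27.9%. Chow 4 lay above all others by more than 1.5-fold in 70 loci and below them in 122, and chow 1 in 56 and 45 loci, against 20 and 11 for chow 2 and 19 and 23 for chow 3. Several gene lists departed from these shares. Median deviations of a list are over its members at 1 FPKM or more, on the log2(FPKM + 0.5) scale, from each member's mean over the 4 libraries.

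**Figure D4:**
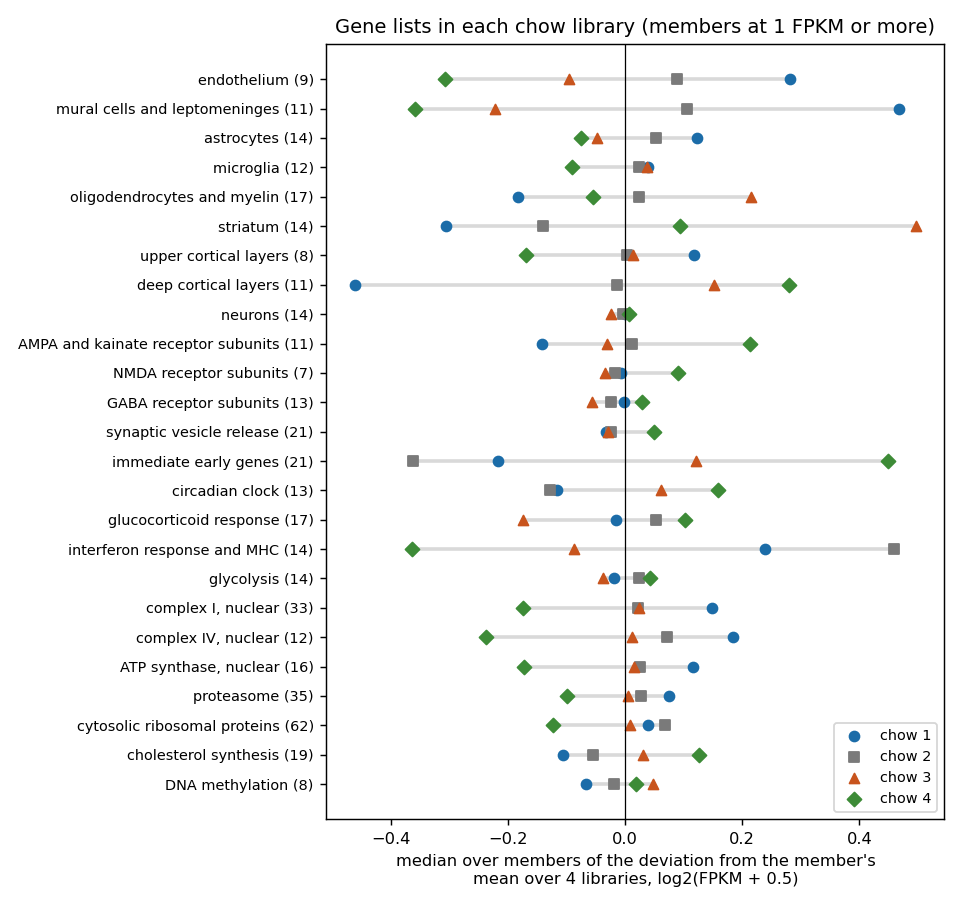
Median deviation of 25 gene lists in each chow library (horizontal, log2 scale), with the number of members in parentheses and 1 marker per library. Neurons and glycolysis stay near 0, whereas striatal markers reach 0.50 in chow 3, deep-layer markers -0.46 in chow 1 and immediate early genes 0.45 in chow 4.

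Vessel and meningeal transcripts were highest in chow 1. All 9 endothelial markers had their highest value there, against 32.3% of all loci. In chow 4, 7 of 9 had their lowest, against 38.1%. Cldn5 stood at 129, 103, 88.0 and 71.8 FPKM. Of the 11 mural and leptomeningeal markers at 1 FPKM or more, 10 were highest in chow 1, the exception being Pdgfrb, and their median deviation was 0.47 in chow 1 and -0.36 in chow 4. Igf2, a growth factor expressed by meningeal fibroblasts, was at 41.9, 30.2, 8.66 and 4.48 FPKM, and the smooth muscle gene Tagln at 32.7, 24.1, 20.3 and 16.8. The collagen gene Col1a1 was at 7.75, 5.12, 2.03 and 2.03 FPKM.

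A further 5 genes among the 20 of widest spread had the same order of libraries as Igf2, including Cox7a2, a subunit gene of complex IV, at 17.6, 14.7, 0.749 and 0.404 FPKM. Ptgds, the prostaglandin D synthase known from the leptomeninges and oligodendrocytes, was at 1243, 724, 285 and 180 FPKM. Igfbp2 was at 56.1, 48.1, 23.6 and 9.08, Coch at 15.0, 6.397, 2.45 and 1.35, and Slc13a4, a sulfate transporter gene, at 10.8, 8.20, 2.10 and 1.98 FPKM. In each of these 5 the value in chow 1 was more than 4-fold that in chow 4 on the FPKM + 0.5 scale. Haemoglobin transcripts did not follow this order, since Hba1,Hba2 was highest in chow 3. Summed over their lists, the 9 endothelial markers held 288, 250.1, 214 and 201 FPKM and the 12 mural and leptomeningeal markers 233, 191, 149 and 129, with Col1a2 listed at 0 throughout. The part of vessel or meningeal tissue in other genes highest in chow 1 was not tested.

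Striatal markers were highest in chow 3. Of the 14 at 1 FPKM or more, 11 had their highest value in chow 3, against 21.3% of all loci. In chow 1, 8 had their lowest, against 28.2%. Adora2a, an adenosine receptor of indirect-pathway neurons, was at 2.76, 2.66, 8.78 and 4.73 FPKM, and Drd2, the D2 dopamine receptor of the same cells, at 1.08, 1.59, 4.88 and 2.85. Drd1, the D1 receptor, was at 1.56, 2.49, 4.27 and 3.54. Rgs9 at 0.894, 2.19, 7.14 and 4.55 and Syndig1l at 0.769, 1.56, 7.91 and 3.48 FPKM had the largest spread of the list. Ppp1r1b, which encodes the dopamine-regulated phosphoprotein DARPP-32 and is also made in cortex, ranged less, at 109, 136, 185 and 119 FPKM. Summed over all 17 measured striatal markers, the 4 libraries held 306, 339, 477 and 319 FPKM, and Ido1 was listed at 0 in all 4. The developmental striatal factors Six3 and Isl1 were at 0.0213 to 0.616 and 0 to 0.0723 FPKM. Both were below 1 FPKM in every library, so no order of libraries is read from them. Adora2a, Drd1, Drd2, Six3 and Isl1 were picked with their values in view, as typical markers of these cells.

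Myelin genes were highest in the same library. Of 17 loci, 14 had their highest value in chow 3, against 21.3%. Of the 17, 0 varied 2-fold, against 3.51% of all loci, a share at which few or none of 17 would. Mbp was given above, and Mobp, another myelin protein gene, was at 185, 258, 294 and 182 FPKM. Aspa and Olig1 were highest in chow 1 and Mal too, the last at 110 to 116 FPKM in every library. With chow 4 left out the count was 14 of 17, and with chow 1 left out 15, against 31.7% and 33.1% of all loci. These counts could not fall, since a gene highest in chow 3 stays so without another library.

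Deep-layer markers were low in chow 1 and upper-layer markers low in chow 4. Of 11 deep-layer genes, 9 had their lowest value in chow 1, against 28.2% of all loci, and 4 varied 2-fold, against 3.51%. The highest value was in chow 3 for 6 of the 11 and in chow 4 for 5, against 21.3% and 29.3% of all loci. Crym, a thyroid hormone binding protein, was at 46.1, 74.7, 51.5 and 152 FPKM. Fezf2, the factor of subcortical projection neurons, was at 8.58, 11.9, 10.1 and 20.01. Both were among those highest in chow 4. Among the 8 upper-layer genes, 6 were lowest in chow 4, against 38.1%, with Rorb, a layer 4 factor, at 21.5, 17.6, 21.0 and 11.0. The general neuronal markers moved both ways in chow 4. There 6 of 14 were highest and 7 of 14 lowest, against 29.3% and 38.1% of all loci. Their median deviation in chow 4 was 0.01.

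**Figure D5:**
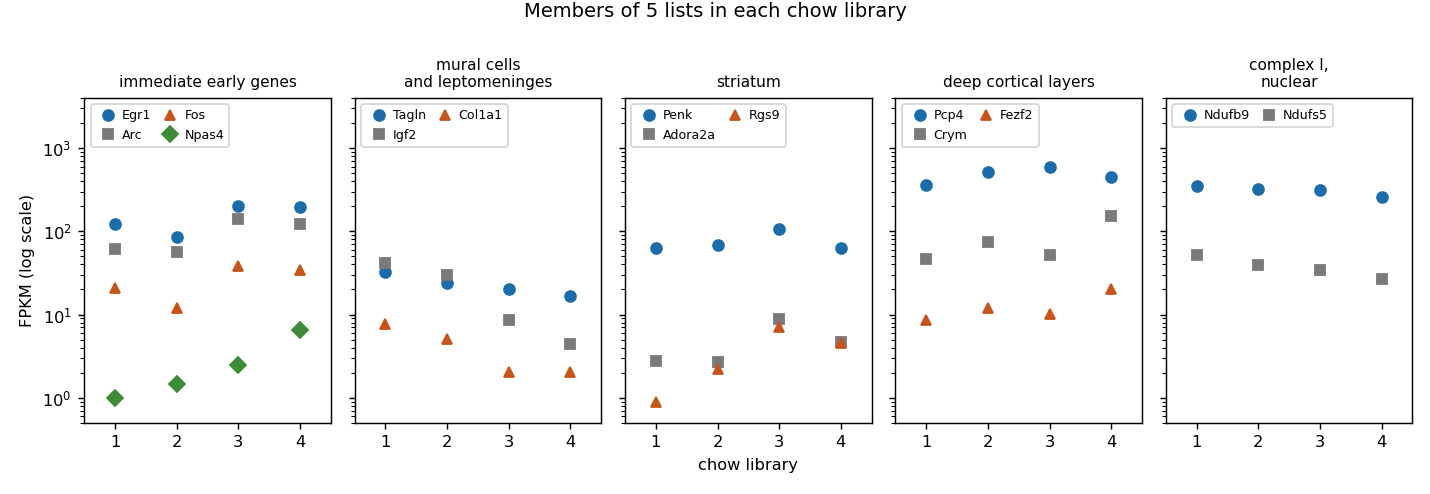
FPKM (log scale) of members of 5 gene lists in chow 1 to chow 4. Egr1, Arc, Fos and Npas4 are higher in chow 3 and chow 4 than in chow 1 and chow 2, Igf2 spans 4.48 to 41.9, Rgs9 peaks at 7.14 in chow 3, Crym at 152 in chow 4, and the complex I genes are lowest in chow 4.

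Immediate early genes are transcribed within minutes of neuronal activity, through factors such as CREB, which binds the cAMP response element (CRE), and SRF, which binds the CArG box. Of 21 such genes, all were at 1 FPKM or more, against 60.4% of all members. Of them 10 varied 2-fold, against 3.51% of all loci, and the median SD was 0.38 against 0.12. The highest value was in chow 3 for 8 genes, against 21.3% of all loci, and in chow 4 for the other 13, against 29.3%, and 16 had their lowest in chow 2, against 14.2% of all loci. With chow 3 left out, 20 of 21 were highest in chow 4, against 34.9% of all loci. The 13 already highest in chow 4 had to stay in that count. Striatal and myelin markers were also highest in chow 3, and their part in these values was not tested.

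Fos, a component of the AP-1 factor, was at 20.8, 12.02, 38.7 and 34.0 FPKM. Arc, a regulator of AMPA receptor endocytosis, was at 61.9, 55.8, 139 and 123, and Egr1, a zinc finger factor, at 121, 84.9, 200.2 and 195. In each the 2 higher libraries lay above the 2 lower ones without overlap, a grouping defined by these values and not by the labels. Npas4, a factor induced by calcium entry, was lower in level, at 1.00, 1.44, 2.44 and 6.53 FPKM. Egr2 was at 4.71, 2.59, 7.88 and 14.7, Nr4a1 at 33.8, 31.2, 62.8 and 68.7 and Junb at 26.2, 21.7, 40.0 and 54.2 FPKM. Jund, known to be expressed constitutively, was at 70.2, 65.4, 71.7 and 69.2, and Jun at 27.5 to 33.8.

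RefSeq promoters (build GRCr8, 250 bases upstream of the start) were matched by symbol for 16 of the 21 genes, too few for a count over the list. Those shown are 5 of the 6 that hold either motif, the other being Jund, with matches to the CRE (TGACGTCA) or the CArG box on either strand in capitals. They are given to show the elements these genes carry, 5′ to 3′ on the strand of the gene.
Egr1 (chr18:26736828-26737077, plus strand): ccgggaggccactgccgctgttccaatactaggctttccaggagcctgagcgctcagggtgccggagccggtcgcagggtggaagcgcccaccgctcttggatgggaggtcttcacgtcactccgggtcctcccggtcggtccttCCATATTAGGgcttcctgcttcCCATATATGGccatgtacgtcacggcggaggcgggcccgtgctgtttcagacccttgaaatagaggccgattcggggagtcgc
Egr2 (chr20:21054442-21054691, minus strand): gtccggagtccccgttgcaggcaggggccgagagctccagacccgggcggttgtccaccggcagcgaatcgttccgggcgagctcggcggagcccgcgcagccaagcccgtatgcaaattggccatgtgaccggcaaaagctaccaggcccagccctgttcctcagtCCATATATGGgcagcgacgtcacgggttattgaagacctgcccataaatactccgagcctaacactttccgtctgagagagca
Dusp1 (chr10:17184603-17184852, plus strand): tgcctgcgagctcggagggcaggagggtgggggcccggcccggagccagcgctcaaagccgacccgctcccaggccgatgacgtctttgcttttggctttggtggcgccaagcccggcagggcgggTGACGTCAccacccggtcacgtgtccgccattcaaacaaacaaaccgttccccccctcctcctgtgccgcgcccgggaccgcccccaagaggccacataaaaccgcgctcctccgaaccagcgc
Btg2 (chr13:48087691-48087940, minus strand): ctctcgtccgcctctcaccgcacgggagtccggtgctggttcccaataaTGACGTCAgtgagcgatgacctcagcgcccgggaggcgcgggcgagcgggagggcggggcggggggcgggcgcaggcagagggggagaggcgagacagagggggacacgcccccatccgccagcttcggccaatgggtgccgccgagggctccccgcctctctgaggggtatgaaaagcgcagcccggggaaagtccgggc
Ier2 (chr19:40399123-40399372, plus strand): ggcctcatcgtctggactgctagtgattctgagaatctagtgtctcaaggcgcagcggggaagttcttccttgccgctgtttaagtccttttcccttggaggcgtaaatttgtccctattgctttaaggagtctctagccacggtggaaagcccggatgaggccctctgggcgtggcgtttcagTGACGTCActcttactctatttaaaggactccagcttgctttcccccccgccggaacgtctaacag
Egr1 holds 2 CArG boxes and Egr2 holds 1, and Dusp1, Btg2 and Ier2 hold a CRE each. Of 33469 promoters of 300 bases in the table, 1.83% hold that CRE and 1.64% the CArG box. A match describes the letters only. Dusp1, a phosphatase gene, was at 33.7, 35.9, 52.0 and 44.0 FPKM, Btg2 at 4.59, 5.66, 5.76 and 7.21 and Ier2 at 7.44, 7.32, 10.5 and 9.35. All 3 varied less than Egr1 or Egr2.

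Clock genes cycle over the day, and glucocorticoid-responsive genes follow the level of the stress hormone. Among 13 clock genes, 9 were highest in chow 4, against 29.3% of all loci, and 1 varied 2-fold, against 3.51%. Per2 was at 6.51, 8.13, 8.79 and 13.6 FPKM and Per1 at 22.2, 18.7, 29.2 and 33.7, while Arntl, their activator, was at 17.0, 15.5, 18.2 and 14.9. Of 17 glucocorticoid-responsive genes, 10 were lowest in chow 3, against 19.5% of all loci, and 9 highest in chow 4, against 29.3%. Sgk1 was at 38.4, 45.8, 33.4 and 56.7 and Zbtb16 at 11.8, 11.8, 8.46 and 19.7 FPKM. The receptor gene Nr3c1 held steady at 16.5 to 17.2 FPKM.

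Mitochondrial genes were lowest in chow 4 as a group, by a small step. Of the 33 complex I genes 29 were lowest in chow 4, against 38.1% of all loci, and 26 were highest in chow 1, against 32.3%. Ndufb9 was at 346, 322, 312 and 260 FPKM and Ndufs5 at 51.3, 39.2, 33.8 and 26.9. The same was so for 11 of 13 genes of complexes II and III, 12 of 12 of complex IV and 15 of 16 of the ATP synthase. The median deviation of complex I was 0.15 in chow 1 and -0.17 in chow 4. Scaled to the same summed FPKM, 26 of 33, 11 of 13, 12 of 12 and 14 of 16 were lowest in chow 4, against 29.2% of all loci under that scaling. Of other lists, 29 of 35 proteasome genes and 41 of 62 ribosomal protein genes were lowest there, falling to 24 of 35 and 33 of 62 after that scaling. The complex IV gene Cox7a2, given above, was low in both chow 3 and chow 4.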

How the data were processed

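RNA-seq of rat frontal cortex was deposited as 1 table of FPKM per locus and sample, made by the authors, with a status beside each value. Per the labels' protocols, poly-A RNA from about 1000 ng of total RNA was copied with random primers and fragments of 200 to 400 bp were sequenced. Whether strand was kept is not stated, so reads of overlapping or antisense transcripts cannot be separated. The submitters' processing notes name rn5 as build and list Cuffdiff, Cufflinks, Bowtie2, Bowtie, TopHat2 and TopHat, with no version or role for any. The table held 0 per-sample columns of other series.

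Values were used as deposited in the 4 columns titled for chow. Spread is the SD of log2(FPKM + 0.5) and the ratio of the highest to the lowest library of FPKM + 0.5, for loci averaging 1 FPKM or more; a ratio of 2 or more counts as varying. No groups were compared, since 1 group is described; Dixon's criterion was used only to list libraries apart. The spread script was tested on simulated data. Of the 17930 member loci 411 carry several symbols, and 1275 symbols stand for several loci; in lists a symbol is represented by its locus of highest mean, and a member merged with an unrelated gene was left out. Named genes are the 20 of highest mean, the 20 of largest and 10 of smallest SD with a mean of at least 5 FPKM, and from each list the 3 highest members, the lowest and the 2 of largest SD, with any receptor, channel, peptide, trophic factor, immediate early, clock, glucocorticoid or DNA methylation gene; others were chosen after their values were seen. Some genes that the rule names are not reported here. Members and lists were chosen with earlier results of these data known. Python 3.11.15, numpy 2.4.6, pandas 2.3.3 and matplotlib 3.10.9 were used. Alternatives left out each library, changed the scaling, the pseudocount or the filter, or kept 1 locus per symbol.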

Additional observations from a re-analysis of the deposited data

Results flagged for a closer look

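Among the 196 genes named above, 22 had a chow library apart from the other 3, by a gap to the nearest of them that took up most of the range (Dixon's 95% criterion, on the log2(FPKM + 0.5) scale). Chance flags about 1 in 20 groups, but the genes were in part named for a wide spread or after their values were seen, so the count is not compared with it. Chow 4 was the library apart in most of them. It was low for Olfm1 (1080 FPKM against 1434 to 1477), LOC685322 (1411 against 1722 to 1749), S100b (778 against 1065 to 1084), Ldhb (526 against 638 to 661), Cartpt (0.921 against 11.9 to 14.8) and Sepw1 (0.168 against 16.8 to 17.4). It was high for Grin2c (17.0 FPKM against 12.8 to 13.4), Gria3 (75.9 against 64.5 to 65.1), Adra1d (29.97 against 25.7 to 26.1), Scn2a1 (53.1 against 38.7 to 40.2), Pgam1 (378 against 359 to 362) and Hk1 (156 against 144 to 145).

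Mir485, Mir128-1, Mir214, Npy and Slc6a3 were above 0 in a single library: Mir485 at 4275 FPKM, Mir128-1 at 2460 and Npy at 1.35 in chow 4, and Mir214 at 29.2 and Slc6a3 at 0.0178 in chow 2. Chow 1 was apart for RT1-CE16, listed at 0 against 181 to 259 FPKM, and Rpl30, at 0.721 against 9.53 to 10.4. Chow 2 was apart for Car3, at 0.802 against 8.52 to 10.4 FPKM, and for Atp5f1, at 5.14 against 0 to 0.114, and chow 3 for Penk, at 106 against 62.9 to 67.7.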

How the results depend on the processing

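The number of loci at 1 FPKM or more was 10403 to 10871 under all alternatives run. The share of loci varying 2-fold was the value most open to choices: 4.69% with a pseudocount of 0.1, 2.53% with 1, 1.98% at a mean of at least 5 FPKM, 2.87% with 1 locus per symbol and 2.79% with the loci of a symbol summed. Leaving out each library gave 1.75% (without chow 4) to 3.09%, and 2.09% without chow 1. The median SD was 0.0927 to 0.128 when a library was left out, lowest without chow 4. The 100 highest loci held 23.0% of the summed FPKM with 1 locus per symbol and 22.8% to 23.1% with a library left out.

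Which library was highest depended on scaling. Divided by the median ratio to the mean, the shares were 30.9% for chow 1, 15.2% for chow 2 and 33.3% for chow 4. At equal summed FPKM, chosen after seeing the data, chow 1 to chow 4 held 27.9%, 15.2%, 19.1% and 37.8%. Without a filter on low values chow 1, chow 2 and chow 4 held 30.8%, 20.3% and 28.3%, and at a mean of at least 5 FPKM chow 2 held 16.2%. With 3 libraries, chow 1 was highest in 38.1% to 39.3%, chow 2 in 25.8% to 32.1%, chow 3 in 28.2% to 33.1% and chow 4 in 33.7% to 34.9%. The counts of list members highest or lowest in a library stayed within 1.5 times in 184 of 185 recalculations, the exception being immediate early genes in chow 4 without chow 3 (20 of 21). Only counts that held most of their list were recalculated. Leaving out another library could hardly lower such a count and had little room to raise it. Changes of scaling could lower it, and under each of them all 20 highest and 17 lowest counts stayed within 1.5 times. List medians of level stayed within the spread between libraries in all 336. Leaving out a library could hardly exceed that limit, and the lists already used the locus of highest mean, so this count says little. List medians of SD moved by over 1.5 times in 18 of 387, 15 of them without chow 4, among them the AMPA and kainate list (0.10 in place of 0.24) and complex IV (0.10 in place of 0.19). No paired analysis was possible because a single group is described. Depth is known only in relative terms, so a value of 0 sets no limit on expression.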
